A study of Mus musculus with 18 samples.

Results

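The liver takes organic anions, cations, drugs and hormone conjugates out of the blood and returns or excretes them through membrane carriers of a few gene families. This account covers the genes on the array whose symbol begins with Slc22a, Slco, Slc47a, Abcc or Abcg followed by a digit: 53 genes among the 18193 that had a probe set with a single gene symbol. A probe set is a group of short oligonucleotides that reports 1 transcript, and each gene was represented by its probe set with the highest mean. The 53 genes were 5 organic cation and carnitine carriers and 16 organic anion or orphan carriers of the Slc22a family, 15 organic anion transporting polypeptides (Slco), 1 MATE exporter (Slc47a1), 10 Abcc genes and 6 Abcg genes. Of these, 37 lay above the filter on low values and were tested for diet, and 16 lay below it.

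Livers came from male C57BL/6J mice (written C56BL/6J in the strain label) that were fed the purified diet AIN93G from an age of 5 weeks for 20 weeks. The control diet held no quercetin, a flavonol of fruit and vegetables. The same diet with 0.05% quercetin and with 1% quercetin made up the other groups. Each diet was given to 12 mice kept 3 to a cage, and 6 livers per diet were hybridised to an Affymetrix mouse array with the labelled RNA of 1 mouse on each array, so that n = 6 in every group. The cage of each mouse is not in the labels. Levels are log2 of the deposited intensity plus 16, differences between diets are on that scale, and the plus 16 makes differences of dim genes smaller than they are. Levels of different genes come from different probes and are not compared with each other.

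The SLC carriers of these families move solutes without hydrolysing ATP: Slco and most Slc22a proteins bring organic ions into the hepatocyte, and MATE exporters exchange organic cations for protons at the canaliculus. Proteins of the Abcc and Abcg families use ATP to export conjugates, drugs or sterols into bile or back into blood. Several of these genes are expressed at different levels in male and female mouse liver, and several respond to nuclear receptors that sense xenobiotics, sterols or bile acids.

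Arrays differed in overall brightness: the median of the 12885 tested genes spanned 0.53 between arrays, with means of 7.01 ± 0.13 in controls, 7.0 ± 0.19 at 0.05% and 6.95 ± 0.17 at 1% (SD, n = 6). At 1%, replicate 1 was the lowest of the 18 arrays in 11 of the 37 tested transporters, and in 5 after each array was shifted to a common median. Defining hepatocyte markers were all above the filter where measured, 8 of 8. In 3 livers, control replicate 3 and replicates 4 and 5 at 0.05%, Cyp2b9, which is not a transporter, stood apart from the other 15. Slc22a29 and Slc22a27 were also highest in these 3 livers. Other transporters, such as Slco1a4, were high there without standing apart from all other mice. Results of these genes are also given without the 3 livers. In RNA from whole liver, fewer cells of a type and less RNA per cell cannot be told apart.

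No transporter passed the threshold in any of the 3 comparisons (limma, Benjamini-Hochberg adjusted p under 0.05), and neither did any of the other tested genes (0 of 12885, 0.0%). The counts at an unadjusted p under 0.05 are therefore a description. For 1% against control it was reached by 5 of the 37 transporters (13.5%) against 715 of all 12885 genes (5.55%). Of the 5, Slc22a5 and Abcc12 were higher, where the background was 1.21%, and Slc22a7, Abcg5 and Slco1b2 were lower, where it was 4.34%. Abcc12 passed the filter on low values only through the quercetin groups, and with the filter at the 60th percentile the count was 4 of 23 transporters, against 5.40% of all genes. After the median shift the same count was 9 of 37, against 8.53% of all genes. These 9 include Abcc12 and Slc22a26, which both passed the filter only through the quercetin groups. Among all genes at an unadjusted p under 0.05, the share that was higher moved from 21.8% as deposited to 45.4% after the median shift. For 0.05% against control it was 2 of 37 against 3.06%, with Slco2a1 higher (1.43% of all genes) and Slc22a7 lower (1.63% of all genes). For 1% against 0.05% it was 3 of 37 against 5.49%, with Abcg5, Abcg8 and Slc22a7 lower (3.62% of all genes) and 0 higher (1.87% of all genes). Without the 3 livers high in Cyp2b9 these counts were 6, 1 and 1, against 5.78%, 3.60% and 3.05% of all genes. The 6 again include Abcc12, which passed the filter only through the quercetin groups. Leaving out single mice gave 3 (without replicate 1 at 1%, 3.61% of all genes) to 10 (without control replicate 4, 7.16%) for the first. It gave 0 (2.27% to 2.99%) to 4 (without control replicate 3, 4.78%) for the second. For the third it gave 1 (without replicate 4 at 0.05%, 3.70%, or replicate 1 at 1%, 4.28%) to 8 (without replicate 2 at 0.05%, 8.87%).

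The plot of the changes on each diet shows the 37 genes together. At 1%, 27 of 37 were below the control mean by any amount (73.0%, against 64.8% of all genes), and their median difference was -0.15 against -0.06 for all genes, or -0.10 after the median shift, when that of all genes was -0.01. All 8 measured hepatocyte markers were below the control mean at 1% too, with a median of -0.15 and 2 at an unadjusted p under 0.05. Their summed intensity ranged from 71135 to 83951 in controls, 69220 to 78591 at 0.05% and 66647 to 74339 at 1%, and their part in the transporter values was not tested. At 0.05%, 17 of 37 were below the control mean (54.5% of all genes) and 20 above it (45.5% of all genes), with a median of 0.01. Against 0.05%, 28 of 37 were lower at 1% (75.7%, against 62.6% of all genes). Means were ordered downward with dose in 13 of 37 (27.5% of all genes) and upward in 5 of 37 (10.4% of all genes). In no transporter did all 6 mice at 1% lie on 1 side of all 6 controls, where 0.0233% of all genes did so upward and 0.132% downward. At 0.05% none of the 37 was separate from the controls either, where 0.0621% of all genes were upward and 0.0388% downward.

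**Figure D1:**
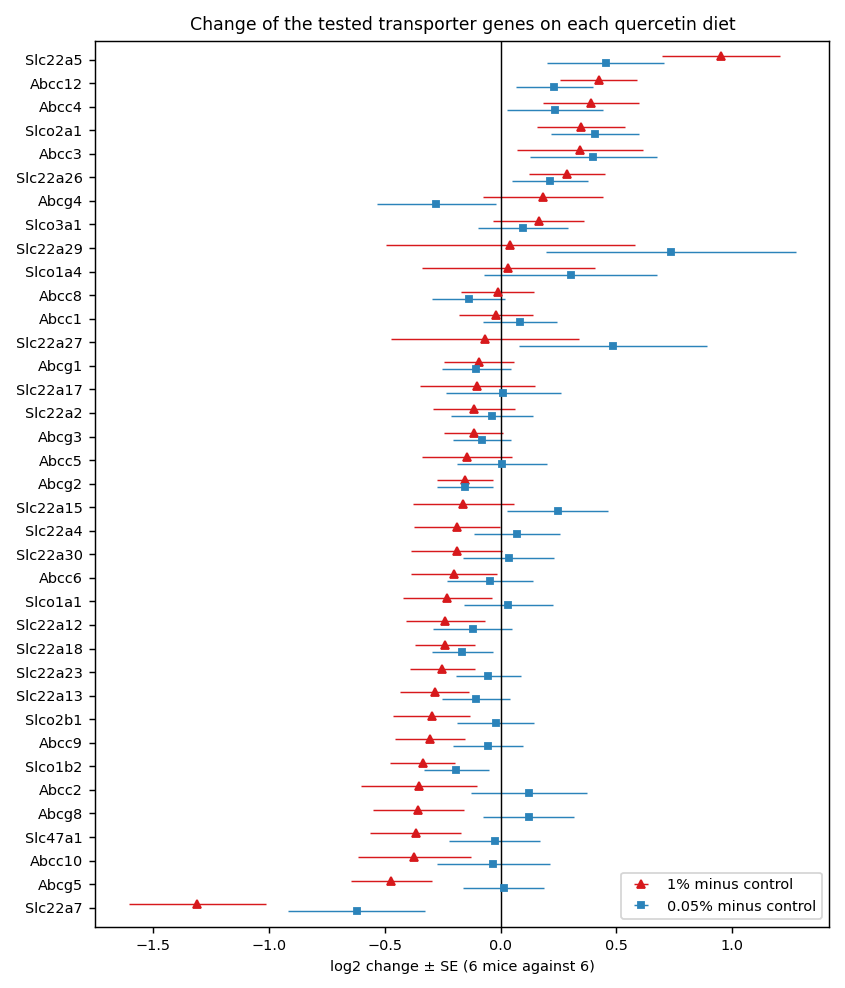
Log2 difference ± SE between each quercetin diet and the control diet for the 37 tested transporters, ordered by the difference at 1% (triangles, 1% minus control; squares, 0.05% minus control; 6 mice against 6). Slc22a7 at -1.31 and Slc22a5 at 0.95 lie at the 2 ends, and none of the differences passed the adjusted threshold.

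Slc22a7 encodes OAT2, a carrier of the sinusoidal membrane that takes up small organic anions. In controls the 6 mice read 9.94, 10.71, 8.78, 9.39, 10.61 and 10.03. At 0.05% they read 8.86, 8.98, 10.03, 9.70, 8.69 and 9.46, and at 1% they read 8.16, 9.35, 8.66, 7.98, 8.86 and 8.60. All 6 mice at 1% lay below the control mean, and 4 of them lay below the lowest control, while replicates 2 and 5 at 1% overlapped the controls.

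The group means of Slc22a7 were 9.91 ± 0.74, 9.29 ± 0.53 and 8.60 ± 0.49 (SD, n = 6) in the order control, 0.05% and 1%. The difference of 1% from control was -1.31 ± 0.30 (95% interval -1.92 to -0.69), a level 2.48-fold lower on the scale of intensity plus 16, with an adjusted p of 0.337 by limma with Benjamini-Hochberg adjustment. An exact two-sided permutation test of this gene alone gave an unadjusted p of 0.00866, where the smallest possible with 6 against 6 is 0.00216. At 0.05% the difference from control was -0.62 ± 0.30 (exact permutation p = 0.128, unadjusted), and 1% differed from 0.05% by -0.69 ± 0.30 (exact permutation p = 0.0390, unadjusted). In limma the unadjusted p-values were 0.0478 and 0.0302 in that order. Neither difference passed the adjusted threshold in limma (adjusted p = 1.0 and 0.860).

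Leaving out single mice moved the difference at 1% between -1.53, without control replicate 3, and -1.15, without control replicate 2, with adjusted p-values of 0.0790 to 0.834 in limma. Control replicate 3 had the lowest Slc22a7 of the control group. Without it and replicates 4 and 5 at 0.05%, the difference was -1.53 at 1% (adjusted p = 0.0776 in limma) and -0.80 at 0.05%. Of 10 pericentral hepatocyte markers, 8 were lower at 1% (64.8% of all genes were), 3 of them at an unadjusted p under 0.05 (4.34% of all genes). At 0.05%, where Slc22a7 was also lower, 3 of the 10 were lower (54.5% of all genes) and 7 higher (45.5% of all genes). Of the latter, 2 were at an unadjusted p under 0.05 (1.43% of all genes). At 1% against 0.05%, where Slc22a7 was lower too, all 10 were lower (62.6% of all genes). Of these, 5 were at an unadjusted p under 0.05 (3.62% of all genes). The summed intensity of the list ranged from 23357 to 28305 in controls, 22102 to 28983 at 0.05% and 19634 to 25147 at 1%. The part of these markers in the Slc22a7 values was not tested.

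The other 13 tested members of the Slc22a family lay between -0.28 and 0.95 at 1%, with 3 higher (35.2% of all genes) and 10 lower (64.8% of all genes). Their median was -0.16. Slc22a7 had the lowest difference of its family in this comparison, and the next was Slc22a13 at -0.28. No second single-symbol probe set was at hand to set beside that of Slc22a7. The difference between Slc22a7 and its relatives was not tested, as they are different probes.

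Slc22a5 encodes OCTN2, the high-affinity carnitine transporter. Its values were 7.56, 6.98, 8.17, 8.30, 8.53 and 8.13 in the controls. They were 8.32, 7.68, 8.59, 8.08, 8.88 and 8.85 at 0.05%, and 8.98, 8.87, 8.46, 9.73, 8.71 and 8.63 at 1%. Of the mice at 1%, 5 exceeded every control and replicate 3 did not.

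Means of Slc22a5 were 7.95 ± 0.57, 8.40 ± 0.47 and 8.90 ± 0.45 (SD, n = 6), ordered upward with dose. The difference at 1% was 0.95 ± 0.25 (95% interval 0.43 to 1.48; adjusted p = 0.460, limma), and the exact permutation test gave an unadjusted p of 0.00433. At 0.05% the difference was 0.45 ± 0.25 (adjusted p = 1.0, limma). A dimmer probe set for the same gene differed by 0.48 at 1% and 0.36 at 0.05%. Leaving out single mice gave 0.76 to 1.07 at 1%. The value was 1.00 without the 3 livers high in Cyp2b9.

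Among its relatives in the cation and carnitine group, Slc22a4 (OCTN1, a carrier of ergothioneine), a neighbour of Slc22a5 on chromosome 11 with Slc22a21 between them, stood at 5.17 ± 0.50, 5.24 ± 0.21 and 4.98 ± 0.25 (SD, n = 6). Its difference at 1% was -0.19 ± 0.19. Slc22a2 (OCT2, the organic cation transporter of kidney) lay just above the filter with means of 4.76, 4.72 and 4.65, and Slc22a16 and Slc22a21 lay below it.

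Among the anion and orphan carriers, Slc22a18, an orphan of an imprinted gene cluster, had means of 9.24 ± 0.25, 9.07 ± 0.16 and 9.0 ± 0.19 (SD, n = 6), a difference of -0.24 ± 0.13 at 1%. Its second probe set above the filter gave -0.32. Slc22a23, another orphan, differed by -0.25 ± 0.14 and Slc22a30 by -0.19 ± 0.20. Slc22a13, Slc22a12 (URAT1, a urate carrier best known from kidney), Slc22a17 and Slc22a15 differed by -0.28 to -0.10. Slc22a26, at 0.29 ± 0.16, passed the filter with a control mean of 4.55 that lay under the filter value of 4.69.

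The filter separated Slc22a2 (4.71), Slc22a26 (4.72) and Abcc12 (4.78) just above it from Slco4a1 (4.53), Slc22a22 (4.51) and Slc22a6 (4.45) just below. The kidney carriers Slc22a6 and Slc22a8 were both below it. So were 9 of the 15 Slco genes, among them Slco1a5, Slco1a6, Slco1c1 and Slco4c1.

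**Figure D2:**
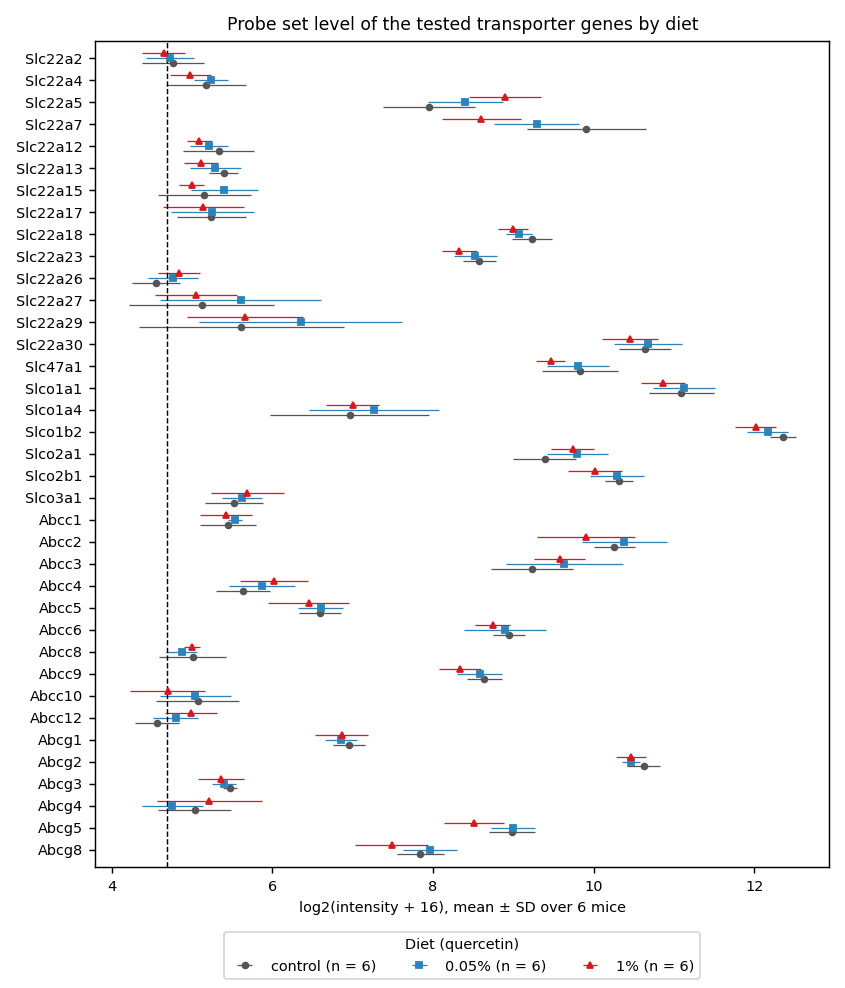
Level of each of the 37 tested transporters, log2(intensity + 16), as mean ± SD over 6 mice on the control diet (circles), 0.05% quercetin (squares) and 1% quercetin (triangles), arranged by family. The dashed line is the filter value of 4.69; Slc22a7 steps down from 9.91 to 8.60 and Slc22a5 steps up from 7.95 to 8.90, while Slc22a29, Slc22a27 and Slco1a4 have the widest bars.

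The Slco family holds the main hepatic uptake carriers of bilirubin, statins and conjugated steroids. Slco1b2, the mouse counterpart of human OATP1B1 and OATP1B3, read 12.42, 12.46, 12.45, 12.03, 12.37 and 12.40 in controls. At 0.05% it read 12.24, 11.73, 12.02, 12.42, 12.22 and 12.36, and at 1% 11.61, 12.23, 11.96, 12.26, 11.86 and 12.18. Control replicate 4 stood below the other controls, and 3 mice at 1% lay below all of them.

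The mean difference of Slco1b2 at 1% was -0.34 ± 0.14 (adjusted p = 0.864, limma). Its 4 other probe sets above the filter did not share that size, with differences between -0.19 and 0.06, and the mean over its probe sets differed by -0.09. At 0.05% those 4 probe sets were higher by 0.13 to 0.40 where the brightest was at -0.19. The direction of Slco1b2 at 0.05% therefore depends on the probe set.

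Slco2a1, the prostaglandin transporter, read 9.91, 9.03, 9.04, 9.12, 9.45 and 9.79 in controls. It read 10.33, 9.30, 9.40, 9.94, 9.89 and 9.91 at 0.05% and 9.53, 9.94, 9.73, 10.14, 9.42 and 9.65 at 1%. Its differences from control were 0.41 ± 0.19 at 0.05% and 0.35 ± 0.19 at 1% (adjusted p = 1.0 and 0.913, limma). The 3 other probe sets of the gene were higher too, by 0.17 to 0.38 and by 0.11 to 0.22. The differences were 0.28 on both diets without the 3 livers high in Cyp2b9. A list of endothelial markers was higher at 0.05% in 9 of 10 genes (45.5% of all genes were). At 1% 5 were higher and 5 lower with a median of -0.02. Its summed intensities were 1785 to 2591 in controls, 1913 to 3107 at 0.05% and 1864 to 3098 at 1%. Its part in the Slco2a1 values was not tested.

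Slco1a1, a carrier of steroid conjugates with a known male bias in mouse liver, differed by -0.23 ± 0.19 at 1% and its second probe set by -0.25. Slco2b1, a carrier of sulphated steroids and drugs, differed by -0.30 ± 0.17 and its second probe set by -0.34. Slco3a1, a widely expressed family member, differed by 0.16 ± 0.19. Slco1a4, a carrier of bile acids, steroid conjugates and cardiac glycosides, differed by 0.03 ± 0.37 and varied widely between mice. Slc47a1 (MATE1), the canalicular exporter of organic cations, had means of 9.83 ± 0.47, 9.81 ± 0.39 and 9.46 ± 0.18 (SD, n = 6), a difference of -0.37 ± 0.20 at 1%, and all 6 mice at 1% lay below the control mean without leaving the range of the controls.

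Of the 10 Abcc genes, 3 were higher at 1% (35.2% of all genes) and 7 lower (64.8% of all genes), with a median of -0.08. Abcc2 (MRP2), the canalicular exporter of glucuronide and glutathione conjugates, read 9.90, 10.30, 10.50, 10.04, 10.24 and 10.56 in controls. At 0.05% its lowest value was 9.59 and its median 10.44, and at 1% they were 8.96 and 9.98. The groups overlapped widely. Its difference at 1% was -0.35 ± 0.25.

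Abcc3 and Abcc4, basolateral exporters that return conjugates to blood, had means above the controls on both diets. Abcc3 (MRP3) stood at 9.23 ± 0.51, 9.63 ± 0.73 and 9.58 ± 0.31 (SD, n = 6), differences of 0.40 ± 0.27 at 0.05% and 0.34 ± 0.27 at 1%. With the 3 livers high in Cyp2b9 left out it was 0.28 at 0.05% and 0.52 at 1% (adjusted p = 0.840, limma). Abcc4 (MRP4) stood at 5.63 ± 0.34, 5.87 ± 0.41 and 6.02 ± 0.43, a difference of 0.39 ± 0.21 at 1% (adjusted p = 0.908, limma), and without replicate 4 at 1%, its highest mouse at 6.83, the difference was 0.23.

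Abcc12, a little studied family member, read 4.44, 4.09, 4.58, 4.85, 4.77 and 4.67 in controls and 5.53, 4.91, 4.67, 5.11, 5.05 and 4.67 at 1%. Its difference was 0.42 ± 0.17 (adjusted p = 0.815, limma), and the control mean of 4.57 lay under the filter value, so that the quercetin groups carried it past the filter. Abcc9, a sulfonylurea receptor subunit of potassium channels, differed by -0.30 ± 0.15 at 1%, with its other probe sets at -0.24 and -0.22. Abcc6, linked to ATP release from hepatocytes, differed by -0.20 ± 0.19 and Abcc1 (MRP1) by -0.02 ± 0.16, a direction that turned to 0.03 after the median shift. Abcc10 differed by -0.37 ± 0.24. For Abcc5 the brightest probe set gave -0.14 ± 0.19 at 1%, and its 3 other probe sets above the filter gave 0.67, 0.33 and 0.27, so the gene has no settled direction here. Abcc8, the other sulfonylurea receptor, differed by -0.01 ± 0.16.

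**Figure D3:**
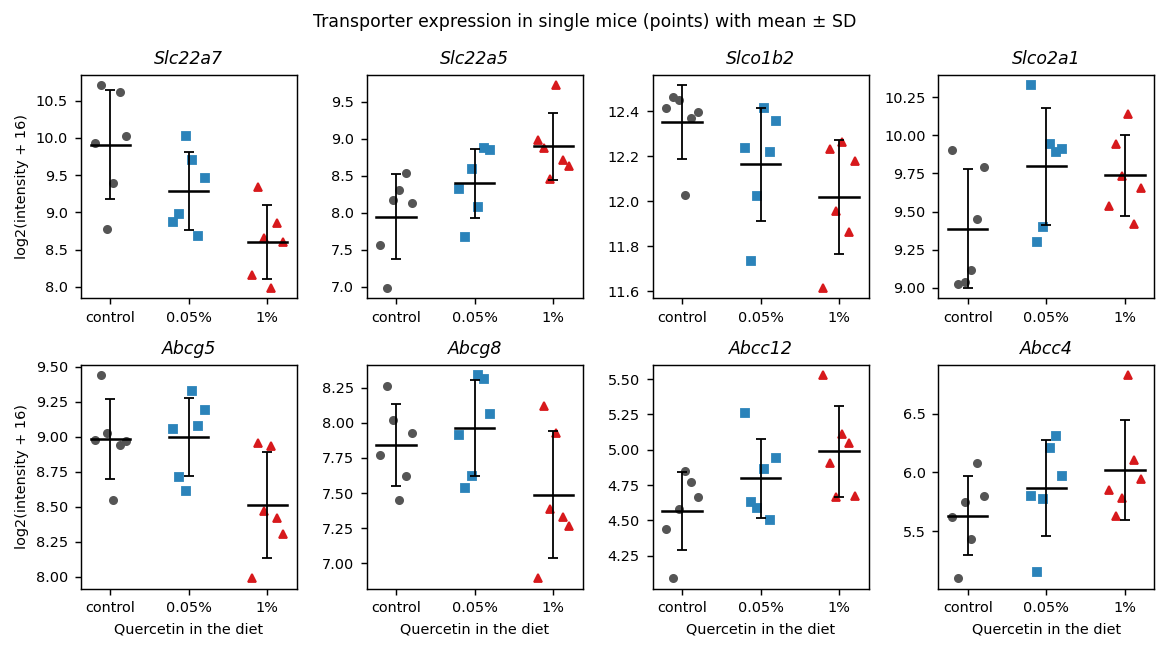
Level of 8 transporters in single mice (points, 6 per diet, spread sideways for legibility) with the mean and SD of each diet (black), as log2(intensity + 16), with a separate vertical scale in each panel. For Slc22a7, 4 of 6 mice at 1% lie below the lowest control at 8.78, and for Slc22a5 5 of 6 lie above the highest control at 8.53.

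Abcg5 and Abcg8 encode the partners of the heterodimer that pumps cholesterol and plant sterols into bile. The genes lie head to head on chromosome 17. RefSeq windows of 250 bases before to 50 bases after the start sites, on GRCm38.p6, were at hand for 42 of the 53 genes, in 52 windows because some genes have several start sites. Slc22a7 is not among the 42. The window of Abcg5 (minus strand, chr17:84682962-84683261) and 1 of those of Abcg8 (plus strand, chr17:84682871-84683170) overlap in 209 bases. They are printed because the pair shares this stretch and had like values across diets. Both run 5′ to 3′ on the strand of the gene, with the shared bases in capitals:
Abcg5: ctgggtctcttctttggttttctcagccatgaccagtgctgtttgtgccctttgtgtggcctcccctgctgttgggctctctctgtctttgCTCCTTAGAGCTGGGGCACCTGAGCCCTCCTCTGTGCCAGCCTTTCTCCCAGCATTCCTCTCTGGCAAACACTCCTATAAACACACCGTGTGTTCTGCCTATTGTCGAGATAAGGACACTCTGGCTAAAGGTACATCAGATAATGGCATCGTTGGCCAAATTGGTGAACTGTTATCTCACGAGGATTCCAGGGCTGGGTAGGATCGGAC
Abcg8: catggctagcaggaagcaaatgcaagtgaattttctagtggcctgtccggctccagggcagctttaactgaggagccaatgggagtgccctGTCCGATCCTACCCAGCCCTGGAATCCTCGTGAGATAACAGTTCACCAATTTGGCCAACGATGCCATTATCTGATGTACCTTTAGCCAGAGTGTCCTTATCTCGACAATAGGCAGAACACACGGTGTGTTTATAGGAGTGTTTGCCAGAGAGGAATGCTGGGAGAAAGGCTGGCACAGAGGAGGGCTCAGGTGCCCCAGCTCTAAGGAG

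Abcg5 read 8.97, 9.44, 9.03, 8.55, 8.94 and 8.97 in controls, 9.06, 8.71, 8.61, 9.33, 9.07 and 9.19 at 0.05%, and 7.99, 8.96, 8.47, 8.94, 8.42 and 8.30 at 1%. Abcg8 read 7.77, 8.27, 8.02, 7.45, 7.62 and 7.93 in controls, 7.91, 7.53, 7.62, 8.34, 8.31 and 8.06 at 0.05%, and 6.89, 8.12, 7.39, 7.93, 7.33 and 7.27 at 1%. For both genes the same 4 mice at 1%, replicates 1, 3, 5 and 6, lay below every control and every mouse at 0.05%, while replicates 2 and 4 lay among them. On the arrays of these 4 mice the median deviation of all tested transporters from their means was -0.30, -0.12, -0.20 and -0.19 as deposited. It was 0.10 and 0.18 on replicates 2 and 4. After the median shift these deviations were -0.03, -0.02, -0.12 and -0.22, against 0.15 and -0.08 on replicates 2 and 4. The median of all tested genes was 6.72, 6.89, 6.91 and 7.02 on the 4 arrays. On replicates 2 and 4 it was 6.94 and 7.24. The part of array brightness in this split was not tested.

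The differences of 1% from control were -0.47 ± 0.17 for Abcg5 and -0.35 ± 0.20 for Abcg8 (adjusted p = 0.803 and 0.924, limma). Against 0.05% they were -0.48 ± 0.17 and -0.48 ± 0.20 (adjusted p = 0.794 and 0.826, limma), and at 0.05% the differences from control were 0.01 ± 0.17 and 0.12 ± 0.20. After the median shift Abcg5 at 1% differed by -0.42 from control and by -0.44 from 0.05%, and Abcg8 differed by -0.43 from 0.05%. Without replicate 1 at 1%, the lowest mouse of both genes, the differences from control were -0.37 and -0.24. Without the 3 livers high in Cyp2b9 those from control were -0.46 and -0.32, and those from 0.05% -0.38 and -0.29.

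The other 4 Abcg genes lay between -0.15 and 0.18 at 1%. Abcg2 (BCRP), the canalicular exporter of sulphate conjugates, drugs and quercetin metabolites, stood at 10.62 ± 0.21, 10.47 ± 0.11 and 10.47 ± 0.19 (SD, n = 6), a difference of -0.15 ± 0.12 on both diets, and had the smallest spread within diets of the 37 genes. Its 95% interval at 1% ran from -0.41 to 0.10. Abcg1, an exporter of cellular cholesterol, differed by -0.09 ± 0.15 with a second probe set at 0.16, and Abcg3, a rodent family member, by -0.12 ± 0.13. Abcg4, a relative of Abcg1, differed by 0.18 ± 0.26 with a second probe set at -0.37.

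The largest variation among these genes was between mice of the same diet. The within-diet SD had a median of 0.351 over the 37 transporters, 0.276 over all tested genes, and exceeded the latter in 28 of 37. It was widest in Slc22a29 (1.12), Slc22a27 (0.83) and Slco1a4 (0.76). Slc22a29 was chosen for description after its values were seen. Slc22a27 and Slc22a29 belong to a rodent cluster of closely related Slc22a genes on chromosome 19. Both are read by probe sets whose names mark them as able to hybridise with other transcripts, so signal of the 2 genes, and of near-identical copies, may be shared.

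The windows at their start sites are printed because the genes vary together and their probes cannot fully separate them. Capitals mark TGACNNNGC, the core of the antioxidant response element, in Slc22a27 and GTTAAT, a core of HNF1 sites, in Slc22a29 (in its reverse complement), both searched on either strand:
Slc22a27: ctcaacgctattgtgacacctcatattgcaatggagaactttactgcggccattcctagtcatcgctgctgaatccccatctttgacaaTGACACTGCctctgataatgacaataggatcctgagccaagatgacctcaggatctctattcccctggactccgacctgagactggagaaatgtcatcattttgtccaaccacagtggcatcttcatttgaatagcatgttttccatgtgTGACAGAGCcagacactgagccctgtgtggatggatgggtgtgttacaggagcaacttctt
Slc22a29: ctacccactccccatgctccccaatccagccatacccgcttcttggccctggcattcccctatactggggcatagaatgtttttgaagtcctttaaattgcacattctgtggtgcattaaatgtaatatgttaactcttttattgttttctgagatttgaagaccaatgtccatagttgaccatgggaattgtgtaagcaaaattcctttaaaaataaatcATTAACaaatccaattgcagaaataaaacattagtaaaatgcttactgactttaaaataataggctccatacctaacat
The first window is chr19:7965978-7966277 and the second chr19:8218851-8219150, both on the minus strand of GRCm38.p6. TGACNNNGC was found in 12.4% of all 32851 windows and in 9 of the 52 windows of these transporters (17.3%), and GTTAAT in 7.10% and in 4 of 52 (7.69%). GCGTG, the core of the xenobiotic response element, was in 32.4% and in 10 of 52 (19.2%), with Slc22a5 and Abcg2 among them. CAAAGTCCA, an HNF4A motif (0.475% of all), and a direct repeat with a spacer of 1 base that nuclear receptors read (0.0396%) were in 0 of the 52. A match or its lack describes these letters only. No window was at hand for Slc22a7, so it was not searched for any of these motifs.

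In controls Slc22a29 read 5.21, 5.37, 8.19, 5.13, 4.96 and 4.84, so that replicate 3 stood far above the other 5. At 0.05% it read 6.23, 4.84, 4.96, 7.16, 8.01 and 6.91, and at 1% 5.64, 6.32, 6.15, 6.17, 5.22 and 4.44. Slc22a27 read 4.66, 4.73, 6.95, 4.59, 4.93 and 4.85 in controls, 5.64, 4.40, 4.65, 6.25, 7.08 and 5.60 at 0.05%, and 5.21, 5.59, 5.08, 5.28, 5.08 and 4.08 at 1%. Slco1a4 read 6.47, 7.88, 8.41, 6.17, 5.93 and 6.93 in controls, 7.35, 6.09, 6.57, 8.32, 7.76 and 7.52 at 0.05%, and 6.93, 7.06, 7.22, 7.48, 6.68 and 6.62 at 1%. The highest values of Slc22a29 and Slc22a27 were those of control replicate 3 and of replicates 4 and 5 at 0.05%, with replicate 6 at 0.05% close behind in Slc22a29. In Slco1a4, control replicate 2 at 7.88 lay above replicate 5 at 0.05%, and replicate 6 at 0.05% and replicate 4 at 1% lay near it.

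Across the 18 mice, deviations from the diet means after the median shift were correlated between Slc22a29 and each of 35 other tested transporters, and between Slc22a7 and 36, 71 relations in all. For Slc22a29, 4 passed an adjusted p under 0.05 in both Pearson's r and Spearman's rho (permutations within diets, 100000 resamples, two-sided, Benjamini-Hochberg over the 71). The adjustment does not cover the choice of Slc22a29 after its values were seen, so these p-values are a description. The probe sets of Slc22a29 and Slc22a27 may share signal, so their correlation cannot be read as that of separate genes. With Slc22a27 r was 0.955 and rho 0.907 (permutation p = 9e-05 and 7e-05, adjusted 0.00544 and 0.00497). With Abcc3 r was 0.852 and rho 0.775 (permutation p = 0.00032 and 0.00097, adjusted 0.00568 and 0.0172), with Slco1a4 0.797 and 0.771 (permutation p = 0.00023 and 0.00028, adjusted 0.00544 and 0.00994), and with Slc47a1 0.725 and 0.701 (permutation p = 0.00017 and 0.00071, adjusted 0.00544 and 0.0168). Without the 2 mice farthest out, control replicate 3 and replicate 5 at 0.05%, r was 0.889, 0.743, 0.693 and 0.565 in that order. Over the 15 mice without control replicate 3 and replicates 4 and 5 at 0.05%, a choice made after seeing the data, r was 0.848, 0.690, 0.600 and 0.486 and rho 0.814, 0.671, 0.768 and 0.546. Within diets r with Slco1a4 was 0.782 in controls, 0.851 at 0.05% and 0.909 at 1%, and with Abcc3 0.921, 0.879 and 0.630, over 6 mice each.

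These 3 livers were set apart by Cyp2b9, a cytochrome P450 known for its female bias in mouse liver, which is not a transporter. It read 8.58 in control replicate 3 and 8.07 and 8.25 in replicates 4 and 5 at 0.05%, and between 4.21 and 5.93 in the other 15. The mean of 8 tested genes from a list of female-biased liver genes was 7.68, 7.56 and 7.82 in these 3 livers and 5.23 to 6.92 in the others. Cyp2b9 is 1 of the 8, so this gap in part repeats the choice of the livers. Members of the list differed: Cyp3a44 was lowest of the 18 livers in control replicate 3 (4.62), and Fmo2 there (5.98) lay among the other controls. Cyp4a14 was 12.39, 12.34 and 12.64 in these 3 livers, and in 5 others, replicates 1 and 6 at 0.05% and replicates 1, 2 and 4 at 1%, it lay between 12.27 and 12.86. All animals are labelled male, and the part of this pattern in the transporter values was not tested.

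**Figure D4:**
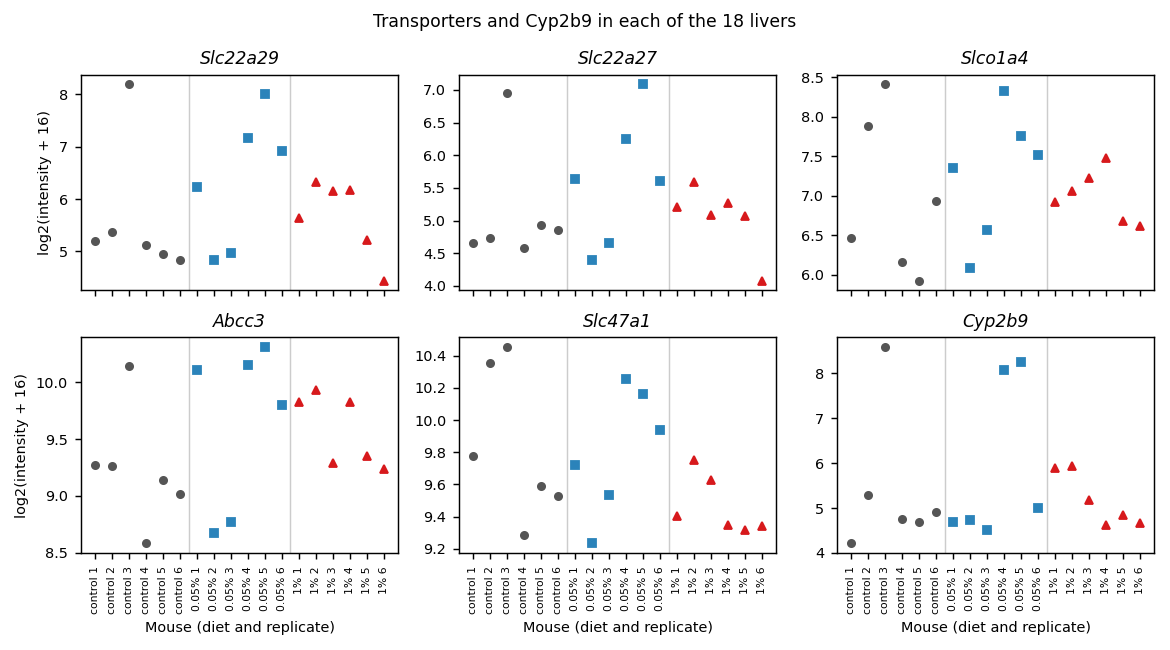
Level of 5 transporters and Cyp2b9 in each of the 18 livers as log2(intensity + 16), by diet and replicate number, with a separate vertical scale in each panel. Control replicate 3 and replicates 4 and 5 at 0.05% are high in Slc22a29 (8.19, 7.16 and 8.01) and in Cyp2b9 (8.58, 8.07 and 8.25), and the order of replicates has no meaning.

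The 3 livers were picked after seeing the data. Control replicate 3 was the highest control in Slc22a29, Slc22a27 and Slco1a4. Leaving it out must raise their differences at 1%, so the changes given here follow from the choice and are a description. Slc22a29 differed from control by 0.74 ± 0.54 at 0.05% and 0.04 ± 0.54 at 1%, and without the 3 livers by 0.63 ± 0.38 and 0.56 ± 0.34. Slc22a27 moved from -0.07 to 0.30 at 1%. Slco1a4 moved from 0.03 to 0.32, and Slc47a1 from -0.37 to -0.24. None passed the adjusted threshold in limma with or without them.

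For Slc22a7, none of the 36 relations passed in both measures. The gene with the highest r was Slc22a18, with r of 0.687 (permutation p = 0.00474, adjusted 0.0561) and rho of 0.726 (permutation p = 0.00203, adjusted 0.0240), and r of 0.649 without control replicate 3 and replicate 4 at 1%. The next in positive r were Slco1a1 (r = 0.442, permutation p = 0.0933) and Slc22a13 (r = 0.420, permutation p = 0.0985). Negative values of like or larger size were those of Slc22a29 (r = -0.511, permutation p = 0.0518, adjusted 0.334), Abcc4 (r = -0.509, permutation p = 0.0444, adjusted 0.315) and Slc22a27 (r = -0.478, permutation p = 0.0701, adjusted 0.356). The r with Slc22a29 was -0.088 without the 3 livers high in Cyp2b9.

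Genes beside these families were read from lists. Of 21 other tested hepatic transporters, 10 were higher at 1% (35.2% of all genes) and 11 lower (64.8% of all genes), and none passed. Slc16a1 (MCT1, a lactate and ketone carrier) differed by 0.49 ± 0.19, Slc29a1 (a nucleoside carrier) by -0.43 ± 0.16 and Slc15a4 (a peptide carrier) by -0.28 ± 0.16. Of 19 receptors and transcription factors with a known action on transporter genes, 4 were higher at 1% and 15 lower (64.8% of all genes). None passed, with Bcl6 at -0.57 ± 0.24, Nr0b2 at -0.45 ± 0.39 and Cebpa at -0.16 ± 0.18. Bcl6, a repressor with a male bias in liver, was at 0.89 ± 0.24 at 0.05% (adjusted p = 1.0, limma), and 1% differed from 0.05% by -1.47 ± 0.24 (adjusted p = 0.0552, limma).

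Of 18 tested NRF2 targets, genes of the oxidant and conjugation response, 15 were higher at 1% (35.2% of all genes) and 3 lower. Their median was 0.33, against -0.06 over all genes, and none passed. Osgin1 differed by 1.16 ± 0.26, Gsta4 by 0.48 ± 0.23 and Cbr3 by 0.63 ± 0.31. Of 10 tested male-biased genes all were lower at 1% (64.8% of all genes were), with Cyp2u1 at -0.33 ± 0.20, Nudt7 at -0.33 ± 0.20 and Hsd3b5 at -0.72 ± 0.60. Of 8 tested female-biased genes 5 were higher (35.2% of all genes were) and 3 lower, with Cyp4a14 at 1.99 ± 0.68, Fmo2 at 0.32 ± 0.17 and Acot3 at 1.27 ± 0.69. None of these passed the adjusted threshold in limma.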

How the data were processed

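RNA of 18 livers was hybridised singly to Affymetrix mouse arrays after labelling with a 3′ IVT kit, per the labels' protocols. The values are linear intensity values of 45101 probe sets as deposited by the authors in the series matrix. Their signal software, scaling and centring were not given in the sources used here. They ran from 0.0118 to 18108. Log2 values were computed from them after adding 16. Genes came from the platform annotation: 34945 probe sets had 1 symbol, 932 several and 9160 none, and 64 were controls. Only single-symbol probe sets were used, the brightest per gene, and the 12885 genes with a mean over 4.69, the 40th percentile, were tested. 1 probe set that lists Slc22a30 with Slc22a29 was left out.

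limma 3.58.1 (R 4.3.3; lmFit, eBayes, 15 residual degrees of freedom) was fitted to 3 diet means over all 18 arrays, with Benjamini-Hochberg adjustment over all tested genes, a threshold of 0.05 and two-sided tests. The median SE at 1% against control was 0.158, and the number of arrays limits this precision. p-values measure the spread between mice, and cage could not be modelled. The fit was tested on simulated data. Exact permutation tests used all 924 splits. No pair of arrays was identical.

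The members and lists were chosen with earlier results of these data known. Genes were named by a rule that took a preset set of members, other members at an unadjusted p under 0.05, the 3 members on each side of the filter and 3 genes per list. Those 3 were the genes with the smallest limma p in the list for 1% against control. Slc22a29, Slc22a12, Slc22a13, Slc22a17, Abcc8, Abcg4, Cyp2b9 and the untested genes below the filter were named outside this rule. Alternatives were a median shift, quantile normalization, no filter or the 60th percentile, 1 added before log2, trend and robust eBayes, array weights, the mean of probe sets, only the 12 arrays compared, the replicate block leaving out each array and, added after seeing the data, leaving out the 3 livers highest in Cyp2b9. The protein comparison once planned was not run.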

Additional observations from a re-analysis of the deposited data

Results flagged for a closer look

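Of 90 groups of 6 mice examined, 7 held a mouse whose gap to the nearest other, relative to the range of the group, exceeded 0.625, the critical value of Dixon's test for 6 samples. Chance flags about 1 in 20 groups. Slc22a29 was added to the groups examined after its values were seen. In controls, replicate 3 stood apart in Slc22a29 at 8.19, where the others ran from 4.84 to 5.37, and in Slc22a27 at 6.95, where the others ran from 4.59 to 4.93. Control replicate 4 was low in Slco1b2 (12.03, the others 12.37 to 12.46) and in Slco2b1 (9.97, the others 10.29 to 10.47). Control replicate 5 was low in Slc22a4 (4.21, the others 5.08 to 5.58), below the filter value. At 1%, replicate 3 was high in Abcc10 (5.60, the others 4.35 to 4.79), and replicate 6 was low in Slc22a27 (4.08, the others 5.08 to 5.59).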

How the results depend on the processing

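Values are log2 differences, or counts of the tested transporters at an unadjusted p under 0.05 and of all genes past the adjusted threshold (both in limma, Benjamini-Hochberg). The tested transporters were 37, except for 53 with no filter, 34 with the mean of probe sets and 23 with the filter at the 60th percentile. No alternative brought a transporter past the adjusted threshold, and Slc22a7 stayed between -1.53 and -1.16 at 1% against control, with adjusted p-values of 0.0776 to 0.631 (0.0790 to 0.834 with single mice left out). Unadjusted, at -1.31 for 1% against control, its p was 0.000219 in limma and 0.00866 in the exact permutation test. At -0.69 for 1% against 0.05% these were 0.0302 and 0.0390. Percentages after a count are the share of all tested genes at an unadjusted p under 0.05 in that setting.

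For 1% against control, the transporters at an unadjusted p under 0.05 were 9 (8.53%) instead of 5 (5.55%) after the median shift, 9 (8.84%) after quantile normalization and 8 (9.61%) with array weights. Abcc12 and Slc22a26, with control means under the filter value, were among the 9 after both the median shift and quantile normalization. Abcc12 was also among the 8 with array weights. A gene that is not a transporter was called (1 instead of 0) after the median shift, after quantile normalization and without the 3 livers high in Cyp2b9. Abcc1 reversed from -0.02 to 0.032 after the median shift, 0.032 after quantile normalization and 0.16 with array weights, which also took Slco1a4 from 0.03 to -0.094. With probe sets averaged per gene Abcc5 was at 0.071 and Abcg1 at 0.036. Without the 3 livers Slc22a27 was at 0.30.

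For 0.05% against control, the count of 2 (3.06%) was 5 (6.37%) with array weights, 0 (2.91%) with 1 added before log2 and 0 (3.23%) with only the 12 arrays compared. It was 1 after quantile normalization (5.43%), with no filter (3.43%), with trend and robust eBayes (2.83%), with the mean of probe sets (2.97%) and without the 3 livers (3.60%). Signs reversed after quantile normalization in Abcc5 (-0.012), Slc47a1 (0.0036) and Slco2b1 (0.013), and with array weights in Abcc6 (0.047), Abcc9 (0.0072), Slco1a1 (-0.0050) and Slco2b1 (0.0040). The mean of probe sets reversed Abcc10 (0.061), Abcg1 (0.043), Slco1b2 (0.17) and Slco2b1 (0.081). Without the 3 livers Abcc2 (-0.029), Abcc5 (-0.21), Abcg5 (-0.080), Abcg8 (-0.025) and Slc22a30 (-0.059) reversed.

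For 1% against 0.05%, genes called were 1 with the filter at the 60th percentile, 2 with trend and robust eBayes and 7 with only the 12 arrays, instead of 0, with Bcl6 among them each time. The count of 3 transporters (5.49%) was 8 (13.1%) with array weights, 5 (6.22%) with the mean of probe sets, 5 (5.51%) with only the 12 arrays and 1 (3.05%) without the 3 livers. Signs reversed after the median shift in Abcg3 (0.012), after quantile normalization in Abcg3 (0.029), with array weights in Abcc4 (-0.069) and Abcg1 (-0.040), and with the mean of probe sets in Abcc5 (0.033) and Abcg1 (-0.0069). Without the 3 livers Abcc3 (0.24), Abcc6 (0.037), Slco1a4 (0.12) and Slco2a1 (0.0013) reversed. The causes were not tested. The setting without the 3 livers was chosen after seeing the data.

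The replicate numbers do not pair the mice: deviations of same-numbered mice of different diets correlated between -0.466 and 0.325, with 3 of 18 pairs over 0.1. With the replicate block 1 gene, Osgin1, was called for 1% against control and 1 transporter reached an unadjusted p under 0.05 for 0.05% against control (3.22%). The block changed the call of no transporter, and Slc22a7 kept an adjusted p of 0.489 in limma at 1%.

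Leaving out 1 mouse at a time gave 0 to 1, 0 to 1 and 0 to 2 genes called in the 3 comparisons, in the order above. A gene was called without control replicate 3 or 1% replicate 6 (1% against control), without 0.05% replicate 1 (0.05% against control), and without control replicate 1, 0.05% replicate 1, 1% replicate 1 or, with 2 genes, 1% replicate 5 (1% against 0.05%). The transporter count at 1% against control ran from 3 (3.61%) without 1% replicate 1 to 10 (7.16%) without control replicate 4, with 8 without control replicate 1 (4.99%) or 1% replicate 4 (7.78%) and 9 without 1% replicate 2 (5.60%) or 3 (4.80%). At 0.05% it ran from 0 (without control replicate 2 or 0.05% replicate 1, 5 or 6; 2.27% to 2.99%) to 4 (without control replicate 3; 4.78%), with 1 without control replicate 1, 4, 5 or 6, 0.05% replicate 4 or 1% replicate 3, 5 or 6 (2.37% to 3.17%). For 1% against 0.05% it ran from 1 (without 0.05% replicate 4, 3.70%, or 1% replicate 1, 4.28%) to 8 (without 0.05% replicate 2, 8.87%), with 6 without 1% replicate 3 (4.87%). For 1% against control, signs reversed within the ranges of Abcc1 (-0.12 to 0.066), Slc22a27 (-0.17 to 0.30) and Slco1a4 (-0.17 to 0.32). For 0.05% against control they did so in Abcc1 (-0.014 to 0.16), Abcc10 (-0.15 to 0.11), Abcc2 (-0.0013 to 0.28), Abcc5 (-0.090 to 0.071), Abcc6 (-0.16 to 0.097), Abcc9 (-0.13 to 0.013), Abcg5 (-0.074 to 0.10), Slc22a23 (-0.12 to 0.034), Slc22a30 (-0.068 to 0.18), Slc22a4 (-0.12 to 0.15), Slc47a1 (-0.13 to 0.099), Slco1a1 (-0.084 to 0.13), Slco2b1 (-0.12 to 0.048) and Slco3a1 (-0.0013 to 0.21). For 1% against 0.05% they did so in Abcc3 (-0.25 to 0.077), Abcc4 (-0.0077 to 0.24), Abcg1 (-0.084 to 0.070), Abcg2 (-0.064 to 0.050), Abcg3 (-0.098 to 0.021), Slco2a1 (-0.16 to 0.048) and Slco3a1 (-0.033 to 0.23).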
